A study of Homo sapiens with 8 samples.

Results

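The autophagy-related (ATG) genes and the subunit genes of the vacuolar H+-ATPase (V-ATPase) were examined in PANC-1, an established human cell line from a pancreatic ductal adenocarcinoma. Members were the protein-coding genes of the deposited count table whose symbols begin with ATG and a digit, or with ATP6V0 or ATP6V1. The rule found 42 genes among the 58735 in the table, 18 of the ATG family and 24 of the V-ATPase family. PANC-1 cells had been transfected for 48 h with a BARD1 siRNA (siBARD1; genotype label BARD1 knockdown) or with the SCR siRNA control (siSCR; genotype label WT), and polyadenylated RNA was sequenced from 4 libraries of each group, replicates 1, 3, 4 and 5. The BARD1 protein binds BRCA1 through its RING domain and acts with it in homologous recombination. Both groups are the same cell line, transiently transfected, and nothing in the labels shows that replicates were grown separately. The p-values therefore reflect the spread among these libraries alone, which may be technical.

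Autophagy encloses cytoplasm in a double membrane, the autophagosome, and delivers it to the lysosome. The ULK1 kinase complex, with ATG13 and ATG101, starts the process. ATG9 vesicles and the lipid transfer protein ATG2 feed the growing membrane, and a lipid kinase complex that contains ATG14 marks it. A pair of ubiquitin-like systems then acts on it: ATG7 and ATG10 join ATG12 to ATG5, the product binds ATG16L1, and ATG7 and ATG3 attach the small proteins of the LC3 and GABARAP family to phosphatidylethanolamine. ATG4 proteases prepare those proteins and later release them. The V-ATPase is a rotary proton pump that acidifies the lysosome. Its V1 part splits ATP in the cytosol and its V0 part carries protons through the membrane. Pancreatic ductal adenocarcinoma is known for high basal autophagy and a large lysosomal compartment.

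Library totals ran from 20185800 to 28590710 counts in siBARD1 and from 17816547 to 24367315 in siSCR. BARD1 stood at 3.27, 2.91, 3.34 and 2.47 CPM (the count scaled to a common library size by TMM) in siBARD1 replicates 1, 3, 4 and 5, and at 17.3, 22.2, 17.8 and 20.8 CPM in siSCR replicates 1, 3, 4 and 5, so the target was lower in every siBARD1 library. siSCR replicate 1 stood apart from the other siSCR libraries. Its chi-square per gene against them was 14.0 to 17.7, compared with 4.26 to 7.07 among those others. siBARD1 replicate 1 was also the most distant of its group, at 8.57 to 9.27 against 4.44 to 7.08 among the other siBARD1 libraries. Without siSCR replicate 1, 8 ATG genes were higher and 4 lower, and 5 V-ATPase genes were higher and 3 lower. These counts equal those with it, but ATG9B lost its call (edgeR adjusted p = 0.064) and ATG2B gained one (0.0204). Of 6 ductal epithelial markers, 3 keratins were abundant: KRT8, KRT18 and KRT19 averaged 1817 ± 406, 726 ± 145 and 638 ± 62.5 CPM in siBARD1 and 3189 ± 535, 1329 ± 168 and 1066 ± 132 CPM in siSCR (SD, n = 4 each). All 3 were called lower in siBARD1. KRT7, EPCAM and CDH1 were not called and were low, with KRT7 at no more than 2.44 CPM in any library. The summed level of these 6 markers was 2771 to 4097 CPM in siBARD1 and 4818 to 6780 CPM in siSCR, and its part in the results that follow was not tested. Acinar, endocrine, leukocyte, endothelial and fibroblast markers were at or near 0: each list of 6 summed to at most 1.84 CPM in any library, and PNLIP, INS, GCG, MS4A1, CDH5, DCN and LUM had no counts.

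Across all genes that passed the filter on low counts, 38.9% of 15287 were called at an edgeR quasi-likelihood adjusted p under 0.05 (Benjamini-Hochberg over all genes tested), 18.9% of all genes being higher and 20.0% lower in siBARD1 (23.7% higher and 16.2% lower when scaled to total counts). Of the 18 ATG genes, all of which passed the filter, 8 were higher, 4 lower and 6 not called. Of the 24 V-ATPase genes, 18 passed the filter; 5 were higher, 3 lower and 10 not called. The median log2 fold change was 0.08 over the ATG genes and 0.08 over the tested V-ATPase genes, against 0.00 over all genes. Changes of at least 1.5-fold were called for 3 ATG genes and 0 V-ATPase genes, against 9.07% of all genes, and 0 members of either family reached 2-fold, against 2.09% of all genes. With a single bulk RNA measurement per library, fewer cells that express a gene and less of its RNA per cell cannot be told apart.

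**Figure D1:**
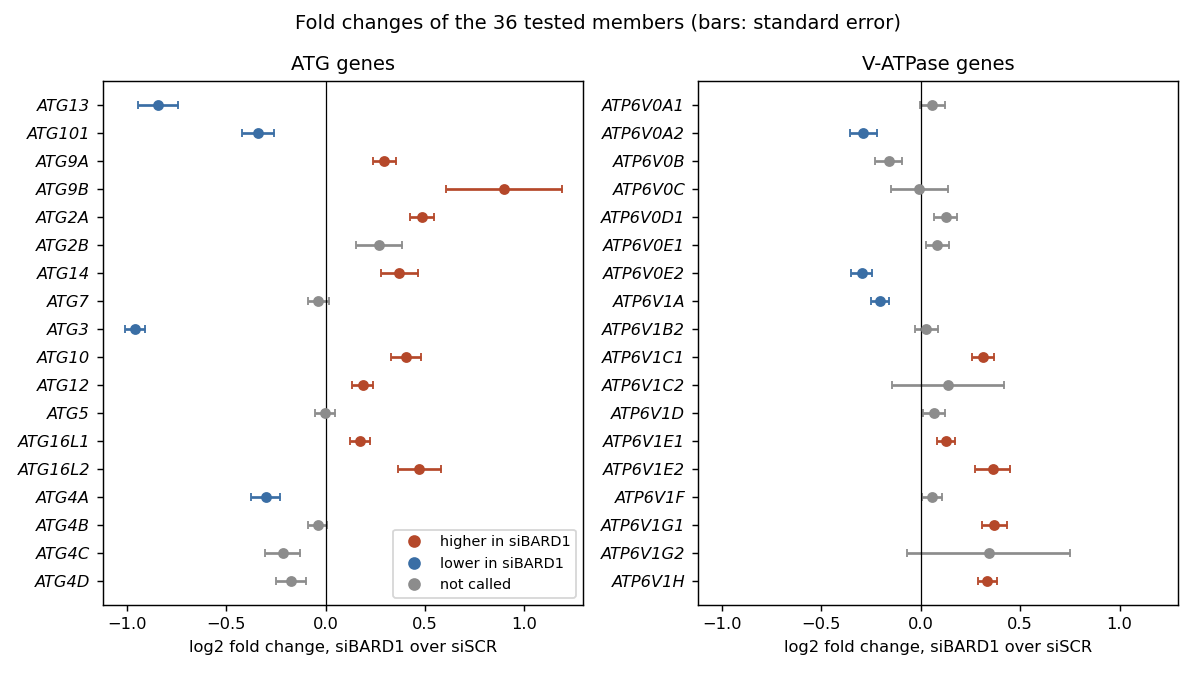
Log2 fold change of siBARD1 over siSCR (x axis) with its standard error for the 18 ATG and the 18 tested V-ATPase genes, one gene per row, coloured by the edgeR call at an adjusted p under 0.05. ATG3 and ATG13 lie farthest to the left, at -0.96 and -0.84, and all tested V-ATPase genes lie between -0.30 and 0.37.

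The steepest fall of any member was in ATG3, the E2-like enzyme that passes LC3 and GABARAP proteins to their lipid. ATG3 (ENSG00000144848; chr3:112532509-112562046, minus strand, GRCh38) stood at 41.0, 39.5, 42.5 and 43.0 CPM in siBARD1 replicates 1, 3, 4 and 5, against 80.2, 82.5, 79.1 and 81.0 CPM in the siSCR libraries in the same order. The groups lay far apart, and the libraries of each group lay close together. The fall was 1.94-fold (log2 fold change -0.96, SE 0.05, edgeR adjusted p = 4.6e-10), and the log2 fold change stayed between -0.98 and -0.87 in all 16 alternative fits. ATG7, the E1-like enzyme that activates both ubiquitin-like proteins upstream of ATG3, had 51.7, 56.8, 55.4 and 53.5 CPM in siBARD1 and 55.5, 55.9, 58.7 and 53.0 CPM in siSCR. Those ranges overlapped (log2 fold change -0.04, SE 0.05, edgeR adjusted p = 0.642), and 18.1% of the exonic bases of ATG7 lie opposite another gene.

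The fall in ATG13, the scaffold subunit that links ULK1 to its partners, was nearly as large. ATG13 (chr11:46617527-46674818, plus strand) stood at 41.0, 33.0, 34.6 and 34.1 CPM in siBARD1, against 77.8, 56.4, 63.2 and 58.0 CPM in siSCR. Replicate 1 was the highest library in both groups, and the groups did not overlap. The fall was 1.80-fold (log2 fold change -0.84, SE 0.10, edgeR adjusted p = 2.9e-05), and it was -0.73 on the log2 scale without siSCR replicate 1. ATG101, the stabilising partner of ATG13, stood at 26.1, 26.2, 26.8 and 30.3 CPM in siBARD1 and 30.4, 39.3, 34.7 and 34.4 CPM in siSCR. Its groups only just separated, with siBARD1 replicate 5 and siSCR replicate 1 side by side (log2 fold change -0.34, SE 0.08, edgeR adjusted p = 0.0029). No strand setting is stated for the counting, and 19.2% of the exonic bases of ATG101 lie opposite an annotated antisense gene that had 0 counts.

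**Figure D2:**
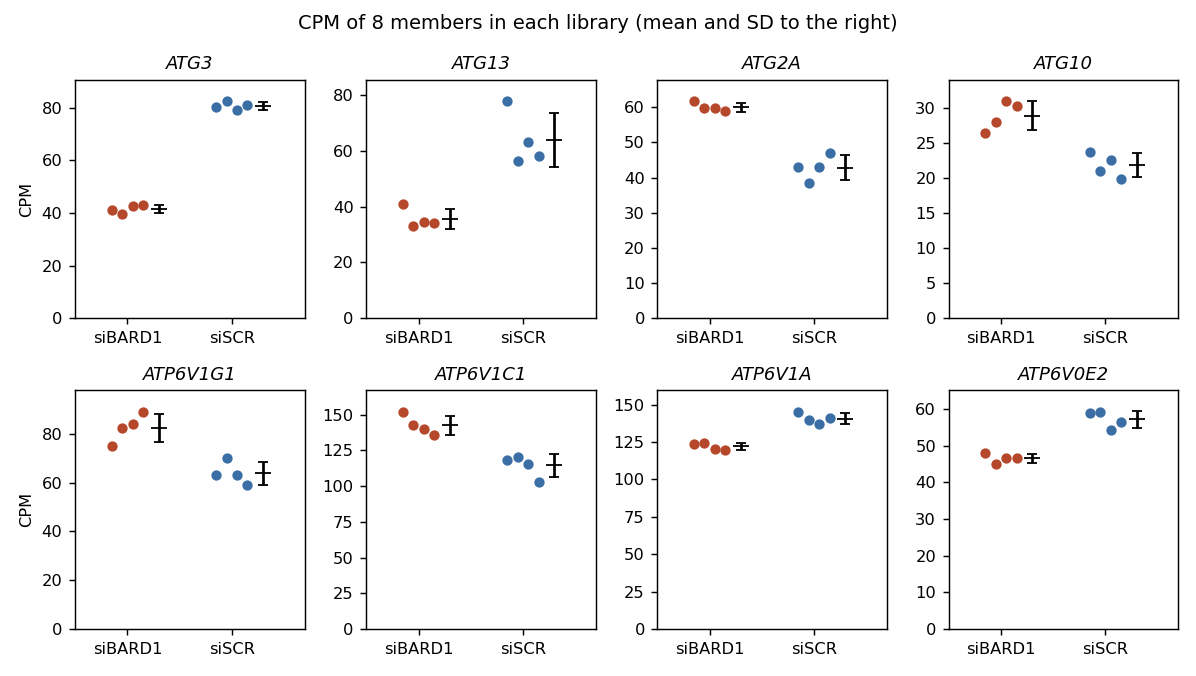
CPM (y axes, from 0) of 8 members in each of the 4 siBARD1 and 4 siSCR libraries, in the order of replicates 1, 3, 4 and 5, with the group mean and SD at the right. ATG3 shows 39.5 to 43.0 CPM in siBARD1 against 79.1 to 82.5 CPM in siSCR, and none of these 8 members, all taken from those called, has overlapping groups; over all genes tested, 36.1% had none.

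Of the genes that join ATG12 to ATG5 and bring the product to the membrane, ATG10, ATG12, ATG16L1 and ATG16L2 were called higher, and ATG7 and ATG5 were not called. The share called higher over all genes tested was 18.9%. ATG10, the E2-like enzyme that joins ATG12 to ATG5, had 26.4, 28.0, 30.9 and 30.3 CPM in siBARD1, against 23.8, 21.1, 22.6 and 19.9 CPM in siSCR. All 4 siBARD1 libraries lay above all 4 siSCR libraries (log2 fold change 0.40, SE 0.08, edgeR adjusted p = 0.000502). For ATG10, 6.86% of exonic bases lie opposite RPS23, which had 4172 to 6147 counts per library, against 363 to 899 for ATG10. ATG12 averaged 62.0 ± 1.56 CPM in siBARD1 and 54.4 ± 2.49 CPM in siSCR (SD, n = 4 each) and was called higher (log2 fold change 0.19, SE 0.05, edgeR adjusted p = 0.00966). Its acceptor ATG5 had 75.9, 72.5, 79.4 and 76.5 CPM in siBARD1 and 78.1, 77.7, 74.9 and 74.4 CPM in siSCR, with overlapping ranges (log2 fold change 0.00 to 2 decimals, SE 0.05). ATG16L1, which brings the ATG12-ATG5 product to the membrane, averaged 73.2 ± 2.92 CPM in siBARD1 and 65.0 ± 0.675 CPM in siSCR (SD, n = 4 each; log2 fold change 0.17, SE 0.05, edgeR adjusted p = 0.0107). That call was lost without siBARD1 replicate 4 (edgeR adjusted p = 0.0545). ATG16L2, a paralog, stood at 11.3, 11.5, 9.94 and 12.3 CPM in siBARD1 and 7.60, 7.54, 9.36 and 7.81 CPM in siSCR. Its groups did not overlap, and siSCR replicate 4 came closest to siBARD1 (log2 fold change 0.47, SE 0.11, edgeR adjusted p = 0.00249).

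Of the 5 members that deliver or mark membrane, ATG2A, ATG9A, ATG9B and ATG14 were called higher and ATG2B was not called. For comparison, 18.9% of all genes tested were called higher. ATG2A, a bridge-like lipid transfer protein, had 61.6, 59.6, 59.6 and 58.8 CPM in siBARD1, against 43.0, 38.3, 42.9 and 46.9 CPM in siSCR. The siBARD1 libraries lay close together and well above the siSCR libraries (log2 fold change 0.48, SE 0.06, edgeR adjusted p = 1.04e-05). Its paralog ATG2B averaged 10.7 ± 1.16 CPM in siBARD1 and 8.85 ± 1.22 CPM in siSCR (SD, n = 4 each), did not pass (edgeR adjusted p = 0.0815), and was called in 4 of 16 alternative fits. ATG9A, the scramblase of the seed vesicles, stood at 77.3, 76.9, 74.7 and 77.0 CPM in siBARD1 and 68.4, 57.3, 60.2 and 62.8 CPM in siSCR. The groups did not overlap (log2 fold change 0.30, SE 0.06, edgeR adjusted p = 0.000549). For ATG9A, 38.8% of exonic bases are shared with a same-strand annotated protein-coding gene that had 2 to 11 counts per library. ATG9B, its sparse paralog, had 24, 33, 42 and 36 counts in siBARD1 and 9, 12, 22 and 18 counts in siSCR. These are 1.17, 1.28, 1.44 and 1.62 CPM in siBARD1 and 0.376, 0.696, 1.03 and 0.884 CPM in siSCR, so the groups were close but separate (log2 fold change 0.90, SE 0.29, edgeR adjusted p = 0.0221). The ATG9B call was lost without siBARD1 replicate 4 or 5 or siSCR replicate 1 or 3 (edgeR adjusted p 0.0538 to 0.064), and 12.3% of its exonic bases lie opposite NOS3. ATG14, which directs the lipid kinase complex to autophagy, had 20.2, 23.5, 26.7 and 22.5 CPM in siBARD1, against 16.3, 16.5, 19.7 and 19.4 CPM in siSCR. The lowest siBARD1 library lay just above the highest siSCR library (log2 fold change 0.37, SE 0.09, edgeR adjusted p = 0.00478).

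Of the 4 ATG4 proteases, ATG4A was called lower. It had 20.1, 20.6, 18.8 and 18.1 CPM in siBARD1, against 23.2, 25.6, 24.1 and 22.6 CPM in siSCR, without overlap (log2 fold change -0.30, SE 0.07, edgeR adjusted p = 0.00373). ATG4C (log2 fold change -0.22, SE 0.09) and ATG4D (-0.17, SE 0.08) also lay below siSCR without overlap but did not pass the edgeR test. They passed only with limma on FPKM. Lying below siSCR without overlap was common, at 18.4% of all genes tested. ATG4B, the main processing enzyme, had a log2 fold change of -0.04 (SE 0.05). Levels between genes were compared in FPKM, the authors' values per gene length and library size. In siBARD1 libraries ATG4B made up 40.3% to 41.8% of summed ATG4 FPKM, against 36.9% to 39.2% in siSCR libraries, and ATG4A made up 22.5% to 24.7% and 25.0% to 28.1%. Neither share overlapped between groups.

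In the V1 part of the proton pump, 5 of 11 tested genes were higher, 1 was lower and 5 did not pass. Over all genes tested, 18.9% were higher and 20.0% lower. ATP6V1G1, of the peripheral stalk, had the largest rise of the family, with 74.9, 82.2, 84.1 and 88.9 CPM in siBARD1, against 63.1, 70.3, 63.1 and 59.0 CPM in siSCR. Its groups did not overlap (log2 fold change 0.37, SE 0.06, edgeR adjusted p = 0.000201). ATP6V1E2, an E subunit known mainly from testis, had 15.9, 17.7, 18.5 and 18.5 CPM in siBARD1 and 13.7, 12.5, 13.5 and 15.1 CPM in siSCR. The gap between the groups was narrow (log2 fold change 0.36, SE 0.09, edgeR adjusted p = 0.00311). ATP6V1H, which couples and regulates the motor, had 70.0, 72.4, 72.3 and 71.5 CPM in siBARD1 and 57.8, 57.9, 56.3 and 54.9 CPM in siSCR. The spread within each group was far below the distance between groups (log2 fold change 0.34, SE 0.05, edgeR adjusted p = 4.11e-05). ATP6V1C1, the subunit through which V1 is released from V0, had 152, 143, 140 and 136 CPM in siBARD1 and 118, 121, 116 and 103 CPM in siSCR, without overlap (log2 fold change 0.32, SE 0.06, edgeR adjusted p = 0.000262). ATP6V1E1, the common E subunit, had 136, 144, 132 and 138 CPM in siBARD1 and 129, 129, 122 and 123 CPM in siSCR. Its change was the smallest that was called (log2 fold change 0.13, SE 0.05, edgeR adjusted p = 0.0357), and the call was lost without siBARD1 replicate 1, 3 or 5 or siSCR replicate 4 or 5 (edgeR adjusted p 0.0516 to 0.103).

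The one V1 gene called lower was that of the catalytic subunit. ATP6V1A, which binds and splits ATP, had 124, 124, 121 and 120 CPM in siBARD1, against 145, 140, 137 and 141 CPM in siSCR. All siBARD1 libraries lay below all siSCR libraries (log2 fold change -0.20, SE 0.04, edgeR adjusted p = 0.00134). ATP6V1B2, its non-catalytic partner in the ring, averaged 50.7 ± 2.35 CPM in siBARD1 and 49.8 ± 2.56 CPM in siSCR (SD, n = 4 each), with overlap (log2 fold change 0.03, SE 0.06). The rotor subunits ATP6V1D (0.07, SE 0.05) and ATP6V1F (0.06, SE 0.05) were not called either, nor were the sparse ATP6V1C2 and ATP6V1G2, both under 1 CPM on average. Summed over the 15 genes whose symbols begin with ATP6V1, the level was 751, 775, 752 and 758 CPM in siBARD1, against 708, 713, 687 and 667 CPM in siSCR. That sum did not overlap between groups. The sum over the 9 V0 genes did, with 340, 363, 345 and 348 CPM in siBARD1 and 362, 385, 349 and 343 CPM in siSCR. Groups without overlap were found for 36.1% of single genes tested. A sum weighs abundant genes most, such as ATP6V1C1, called higher, and ATP6V1A, called lower.

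In the V0 part, 2 of 7 tested genes were lower and 0 were higher by edgeR, and likewise 2 lower and 0 higher by DESeq2. The edgeR calls made up 28.6% of the tested V0 genes, against 38.9% of all genes (20.0% lower and 18.9% higher). At an unadjusted edgeR p under 0.05, 3 were lower and 1 higher, against 3646 lower and 3582 higher of all 15287 genes. ATP6V0E2, one of the small e subunits, had 48.0, 45.0, 46.8 and 46.6 CPM in siBARD1, against 59.0, 59.2, 54.4 and 56.4 CPM in siSCR, without overlap (log2 fold change -0.30, SE 0.05, edgeR adjusted p = 0.000344). Antisense annotation covers 13.0% of its exonic bases. ATP6V0A2, an a subunit known from Golgi and endosomal pumps, had 23.3, 28.0, 27.8 and 27.2 CPM in siBARD1 and 32.7, 32.1, 32.7 and 32.5 CPM in siSCR. Replicate 1 was the lowest siBARD1 library, and all 4 lay below siSCR (log2 fold change -0.29, SE 0.07, edgeR adjusted p = 0.00319). Their more abundant paralogs were not called: the log2 fold change was 0.08 (SE 0.06) for ATP6V0E1 and 0.06 (SE 0.06) for ATP6V0A1. ATP6V0A2 made up 32.0% to 37.9% of summed FPKM of the a subunits in siBARD1 libraries, against 40.5% to 41.5% in siSCR libraries. ATP6V0E2 made up 8.37% to 9.90% of e subunit FPKM in siBARD1 libraries, against 11.1% to 12.5% in siSCR libraries. In the other paralog sets examined, ATG2, ATG9, ATG16L and the d, B, C, E and G subunits, every share overlapped between groups.

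**Figure D3:**
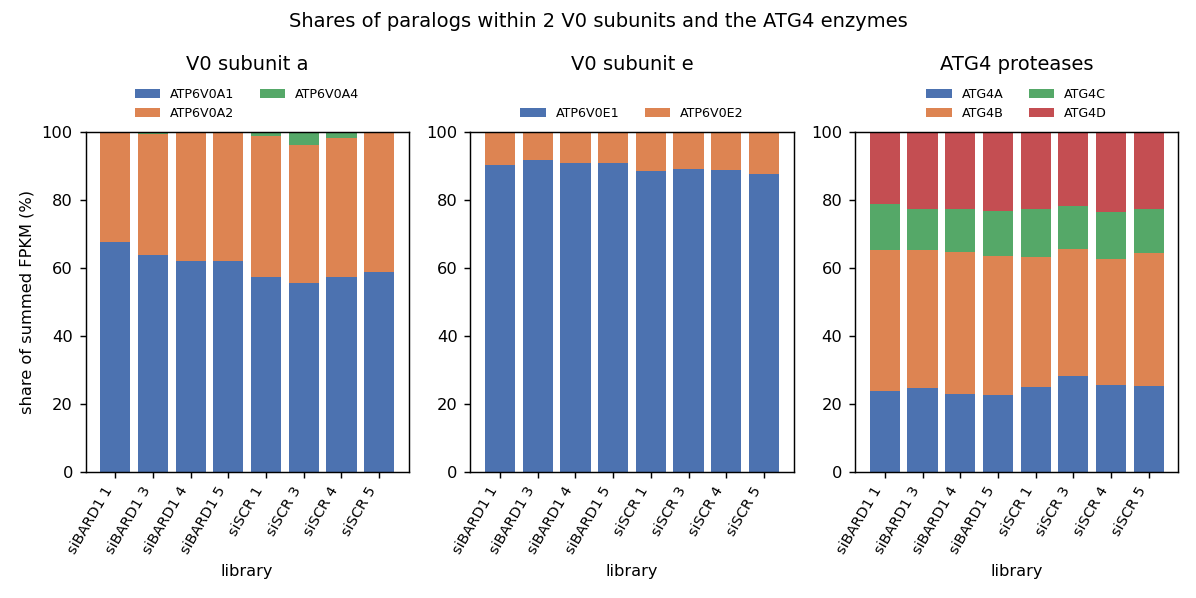
Share of summed FPKM (y axis, percent) held by each paralog of the V0 a and e subunits and of the ATG4 proteases in each library (x axis, siBARD1 at the left). Only paralog sets with a share that did not overlap between groups are drawn. The ATP6V0A2 share is 32.0% to 37.9% in siBARD1 and 40.5% to 41.5% in siSCR, and the ATG4B share is 40.3% to 41.8% in siBARD1 and 36.9% to 39.2% in siSCR.

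The proton-carrying ring is made of the products of ATP6V0C and ATP6V0B. ATP6V0C had 13.6, 16.5, 10.4 and 10.6 CPM in siBARD1 and 12.4, 14.9, 10.9 and 13.1 CPM in siSCR, with overlap and a log2 fold change of -0.01 (SE 0.14). Its level is uncertain, since 72.1% of its exonic bases are shared with 2 other annotated genes on the same strand, each with at most 3 counts in any library. How reads on such shared bases were counted is not given in the sources used here. ATP6V0B averaged 55.4 ± 2.19 CPM in siBARD1 and 62.1 ± 6.43 CPM in siSCR (SD, n = 4 each; log2 fold change -0.16, SE 0.07, edgeR adjusted p = 0.068). ATP6V0D1, which joins the ring to the central stalk, had a log2 fold change of 0.13 (SE 0.06, edgeR adjusted p = 0.0958).

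The 6 members that failed the filter were all V-ATPase genes. ATP6V0A4 and ATP6V1B1, isoforms known from kidney and inner ear, had at most 16 and 3 counts in any library, and ATP6V0D2, known from osteoclasts, had at most 6. ATP6V1B1 shares 62.4% of its exonic bases with VAX2 on the same strand, and VAX2 had 53 to 117 counts per library. ATP6V0A4 had 2, 4, 1 and 2 counts in siBARD1 and 7, 16, 10 and 2 counts in siSCR. ATP6V1FNB, a neighbour of ATP6V1F that the name rule takes in although it is not a pump subunit, had 5 to 12 counts. ATP6V1G3 and ATP6V1G2-DDX39B had 0 counts in every library, which allows up to 0.105 to 0.168 CPM per library (3 counts of the library total, counting error only). All exonic bases of ATP6V1G2-DDX39B are shared with other genes on the same strand. A single isoform made up nearly all of several subunits: ATP6V1B2 held at least 99.0% of B subunit FPKM, ATP6V1C1 at least 98.5% of C, ATP6V1G1 at least 99.3% of G and ATP6V0D1 at least 98.6% of d in every library.

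Per length, the ATG family was led by ATG9A, ATG5, ATG16L1 and ATG4B in siBARD1, at 16.1 ± 0.202, 13.3 ± 0.513, 12.0 ± 0.509 and 11.5 ± 0.365 FPKM. In siSCR the leaders were ATG5, ATG3, ATG9A and ATG4B, at 13.4 ± 0.359, 13.1 ± 0.244, 13.1 ± 0.993 and 11.9 ± 0.215 FPKM (SD, n = 4 each). Apart from ATG4B with ATG16L1 in siBARD1, and the first 3 of siSCR among themselves, neighbours in these orders differed by more than either SD. ATG3 stood at 6.74 ± 0.257 FPKM in siBARD1 and no longer among the leaders. The V-ATPase family was led in both groups by ATP6V1F, ATP6V0E1 and ATP6V1G1, at 87.4 ± 1.60, 68.1 ± 3.40 and 62.7 ± 4.44 FPKM in siBARD1 and 84.3 ± 4.50, 64.4 ± 5.09 and 48.7 ± 3.70 FPKM in siSCR (SD, n = 4 each).

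**Figure D4:**
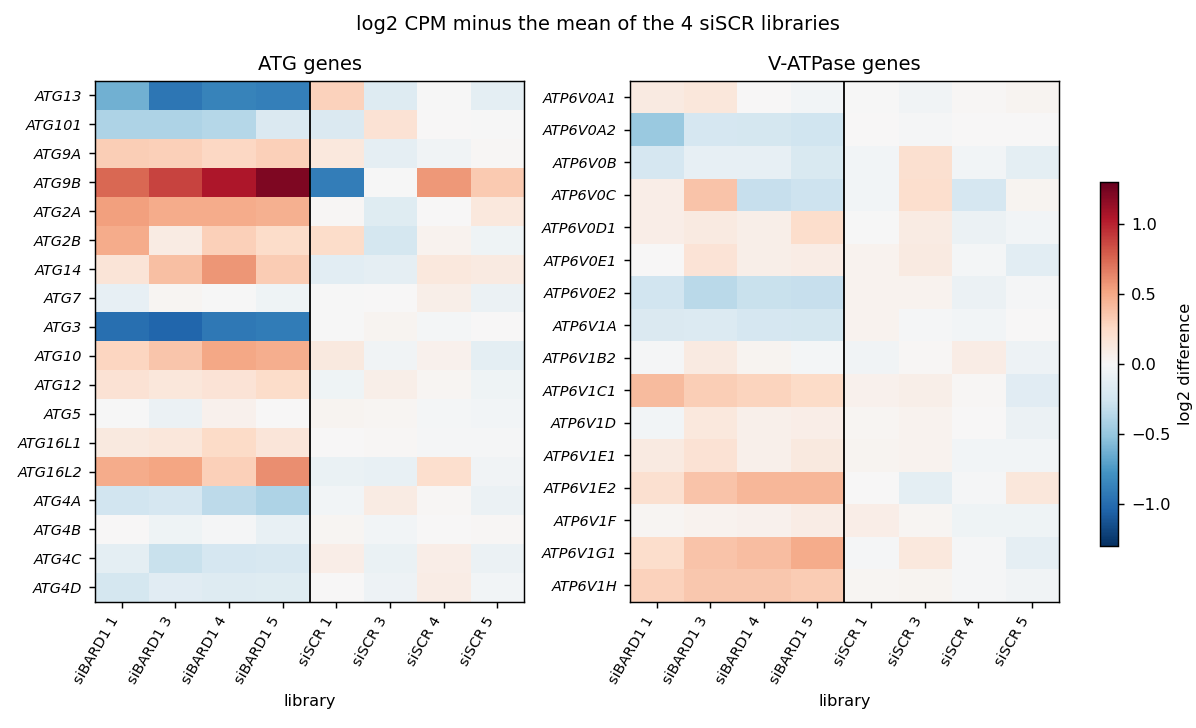
Log2 CPM minus the mean of the 4 siSCR libraries (colour, red above and blue below) for members averaging at least 1 CPM (rows) in each library (columns, siBARD1 at the left of the line). ATG3 and ATG13 are blue in all 4 siBARD1 libraries, and pale rows include ATG7 at a log2 fold change of -0.04 and ATP6V1B2 at 0.03.

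Transcripts of the members were searched for CTACCAG, a 7-base sequence that an earlier search of these same data had found in the genes with the steepest falls, so its presence here is a description and no independent evidence. It was looked for on the sense strand of 1 GENCODE 29 transcript per gene, chosen as that with the longest 3′ UTR whether or not it is the form expressed. Of 12722 tested protein-coding genes, 24.3% carried it anywhere in that transcript and 8.10% in the 3′ UTR. Of the 36 tested members, 9 carried it anywhere and 2 in the 3′ UTR. The members with it in the 3′ UTR were ATG3 and ATP6V1A, the steepest fall of the ATG family and the fall in the catalytic subunit. By call, it was present in 4 of the 7 members that were lower, 3 of the 13 that were higher and 2 of the 16 that were not called. ATG4A, ATP6V0E2 and ATP6V0A2 were lower and carried no copy. The sequences around it are shown for the members with library values above, with CTACCAG in capitals and 10 bases on each side, as they read in the transcript.
ATG3 3′ UTR: atatgttccaCTACCAGccttacttgt
ATP6V1A 3′ UTR: tttcttaaacCTACCAGcaaactagga
ATG13 coding: gcattcatgtCTACCAGgcaatttgag
ATG101 coding: ccttggagttCTACCAGaagaagaagt
ATG9B coding: gctacaccaaCTACCAGgtggcgctgg
ATP6V1E2 5′ UTR: ataataataaCTACCAGacatgaagat
ATP6V1E2 coding: acccagaggtCTACCAGgggctgctgg
On GRCh38 these lie at chr3:112532534-112532560 (minus strand) for ATG3, chr3:113811528-113811554 (plus) for ATP6V1A, chr12:52076829-52076855 (plus) for ATG101 and chr7:151019224-151019250 (minus) for ATG9B. The ATP6V1E2 copies lie at chr2:46519738-46519764 and chr2:46512363-46512389 (minus). The ATG13 window crosses a splice junction and spans chr11:46657175-46657533 (plus). The carriers that were higher were ATG9B, ATG16L1 with 1 coding copy not shown, and ATP6V1E2 with 2 copies.

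Promoters were searched for CACGTG, the E-box at the core of the element GTCACGTGAC through which TFEB, TFE3 and MITF are known to act on lysosomal genes. Both motifs read the same on both strands, and the first lies within the second. RefSeq promoters (GRCh38.p14, 250 bases before to 50 after the start site) were found for 33 of the 42 members, and 6 held CACGTG: 2 of 17 ATG and 4 of 16 V-ATPase promoters, against 9.34% of 14789 promoters of tested protein-coding genes. For each member only the first listed promoter was searched, whereas the 14789 include every listed promoter of a gene, so the units differ. Among the member promoters searched, only that of ATP6V1G1 held the full element. No promoter was found for ATP6V1H, ATP6V1C1 and ATP6V1E2, called higher, or for ATP6V1A, called lower. The full element was in 0.663% of the 14789. Windows of 30 bases are shown with CACGTG in capitals for the members that were called.
ATP6V1G1: acgctgtgcggtCACGTGacaacgggggcg
ATG14: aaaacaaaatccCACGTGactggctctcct
ATG3 first copy: cctttctcacgtCACGTGccgggagagtct
ATG3 second copy: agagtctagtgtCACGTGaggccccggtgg
ATP6V0E2: tcccttctgcatCACGTGgggactgcgcct
The motif began 58 bases before the start site in ATP6V1G1 (chr9:114587699-114587728, plus strand), 21 before it in ATG14 (chr14:55411834-55411863, minus), 18 before and 5 after it in ATG3 (chr3:112561963-112561992 and chr3:112561940-112561969, minus) and 72 before it in ATP6V0E2 (chr7:149872884-149872913, plus). ATP6V1G1 and ATG14 were higher in siBARD1 while ATG3 and ATP6V0E2 were lower, so called genes with the motif went both ways. The other promoters with CACGTG were those of ATP6V0B and ATP6V0D1, which were not called. None of TFEB (log2 fold change -0.21, SE 0.13), TFE3 (0.09, SE 0.05) and MITF (0.11, SE 0.14) was called by edgeR; the unadjusted p of each was above 0.05.

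Among the targets of conjugation and the proteins that read the marked membrane, 5 of 11 tested genes were higher (8 without siSCR replicate 1) and 1 was lower. Over all genes tested, 18.9% were higher and 20.0% lower. The median log2 fold change of the list was 0.25. GABARAPL2, a substrate of ATG3, stood at 29.2, 27.7, 26.3 and 30.2 CPM in siBARD1 and 44.4, 42.9, 39.6 and 38.5 CPM in siSCR, without overlap (log2 fold change -0.55, SE 0.07, edgeR adjusted p = 9.37e-06). MAP1LC3B, a much-used marker of autophagosomes, was not called (151.8 ± 5.65 CPM in siBARD1 and 143.2 ± 11.3 CPM in siSCR, SD, n = 4 each; edgeR adjusted p = 0.253). WIPI2, which recruits ATG16L1 to the lipid mark, was higher at 118.0 ± 3.10 CPM in siBARD1 and 84.6 ± 7.04 CPM in siSCR (SD, n = 4 each; log2 fold change 0.48, SE 0.06). WIPI1 was also called higher (0.50, SE 0.14) with overlapping libraries, and 28.1% of its exonic bases lie opposite another gene.

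A list of 13 genes was built around the initiation and lipid kinase complexes without ATG13 and ATG101, called lower, or ATG14, called higher. Of these 13 genes, 7 were higher and 1 was lower, against 18.9% higher and 20.0% lower over all genes. ULK1, the kinase that ATG13 and ATG101 serve, was the lower one (log2 fold change -0.24, SE 0.07, edgeR adjusted p = 0.0138), with overlap between groups. Without siSCR replicate 4 the call on ULK1 was lost (edgeR adjusted p = 0.0552), and 4 genes of the list were higher and 0 lower. TMEM41B, a scramblase of the endoplasmic reticulum (0.40, SE 0.06), and PIK3R4, the regulatory subunit of the lipid kinase (0.33, SE 0.07), rose most. Of 14 selective autophagy receptors, 5 were higher and 2 lower, against 18.9% higher and 20.0% lower over all genes. Only 2 were higher without siBARD1 replicate 4 or without siSCR replicate 3, 4 or 5, and 1 was lower without siBARD1 replicate 3. TEX264, a receptor for the endoplasmic reticulum, fell to 19.5 ± 0.694 CPM in siBARD1, against 33.4 ± 2.52 CPM in siSCR (SD, n = 4 each; log2 fold change -0.78, SE 0.07, edgeR adjusted p = 2.66e-07). PHB2, an inner mitochondrial membrane receptor, had -0.15 (SE 0.04), BNIP3L, a mitophagy receptor, had 0.32 (SE 0.07) and CCPG1, another receptor for the endoplasmic reticulum, had 0.26 (SE 0.09), the last with 38.9% of its exonic bases shared on the same strand.

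Of 13 genes of autophagosome fusion with the lysosome, 6 were higher and 2 lower (1 lower without siBARD1 replicate 1 or 4 or siSCR replicate 4). The shares over all genes tested were 18.9% higher and 20.0% lower. STX17, the autophagosomal SNARE, rose to 16.9 ± 0.891 CPM in siBARD1, against 9.88 ± 0.614 CPM in siSCR (SD, n = 4 each; log2 fold change 0.77, SE 0.09, edgeR adjusted p = 3.02e-06). EPG5, a tether, had 0.48 (SE 0.08), the SNARE YKT6 had -0.22 (SE 0.05) and the adaptor PLEKHM1 had -0.28 (SE 0.09). Among 12 tested V-ATPase assembly and accessory genes, 3 were higher and 0 lower by edgeR, and 2 were higher and 0 lower by DESeq2. The edgeR calls made up 25% of the list, against 38.9% of all genes, and 0 of them held in every alternative fit. All 12 had a positive log2 fold change, from 0.03 to 0.23, against 7737 of the 15287 genes tested. At an unadjusted p under 0.05, 4 were higher and 0 lower, against 3582 higher and 3646 lower over all genes. DMXL2 (0.23, SE 0.08) and DMXL1 (0.19, SE 0.07), which help V1 and V0 join, were called with overlapping libraries. The number called higher was 0 without siSCR replicate 5, 1 without siBARD1 replicate 4 or siSCR replicate 3 or 4, and 5 without siSCR replicate 1. The log2 fold change of WDR7 turned to -0.04 without siSCR replicate 3.

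Among 18 genes of lysosomal nutrient sensing, 5 were higher and 3 lower (3 higher without siBARD1 replicate 3, 4 or 5 or siSCR replicate 3 or 4). Called genes made up 44.4% of this list, near the 38.9% of all genes. LAMTOR1, which anchors the sensing complex at the lysosome and is known to contact the V-ATPase, had 79.3, 81.8, 78.2 and 75.3 CPM in siBARD1, against 127.3, 126.8, 116.7 and 113.1 CPM in siSCR. The groups lay well apart (log2 fold change -0.62, SE 0.05, edgeR adjusted p = 1.2e-07). The GTPase gene RRAGA had -0.61 (SE 0.09), while FNIP2 (0.60, SE 0.06) and FNIP1 (0.46, SE 0.06), partners of folliculin, rose. Of 14 lysosomal membrane genes, 5 were higher and 3 lower (3 higher without siBARD1 replicate 4), so 57.1% were called, against 38.9% of all genes. CTNS, the cystine exporter, had the largest change (log2 fold change -0.83, SE 0.09, edgeR adjusted p = 2.35e-06), followed by TMEM192 (0.38, SE 0.12), the amino acid transporter SLC36A1 (-0.38, SE 0.09) and OSTM1, the partner of a lysosomal chloride transporter (0.37, SE 0.05).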

How the data were processed

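The authors deposited whole-number counts per gene and FPKM values per gene, with a column for each library. Fastp, HISAT2 (2.0.5) and featureCounts are named in the submitters' processing notes, but the sources used here give no settings, strand included. GRCh37 and hg19 are named there too, but all 58735 genes in the tables have the starts and ends of GENCODE 29 on GRCh38, so coordinates here are GRCh38. Deposited FPKM followed from count, gene length and library total up to a constant factor of 0.970 to 1.03 in a library.

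Counts were tested with edgeR (4.0.16, R 4.3.3): filterByExpr, TMM, a robust quasi-likelihood model of siBARD1 over siSCR with no covariate, and Benjamini-Hochberg adjustment over all genes tested, threshold 0.05. Standard errors are the log2 fold change over the square root of F. The step was tested on simulated data. Alternatives used DESeq2 (1.42.0) and limma (3.58.1), other scalings and filters, the replicate number as a block, a threshold of 0.01, and each library left out. Pairs within a group had a chi-square per gene of 4.26 to 17.7, so none was taken as a duplicate. Members and lists were chosen with earlier results of these data known, so family counts carry no test. Library values were given for called members averaging at least 1 CPM, at most 10 a family by size of change, and for ATG5, ATG7, ATG9A, ATP6V0C and ATP6V1A whatever their result. Each pathway list names, of its called genes, the 2 with the largest rise and the 2 with the largest fall, and MAP1LC3B, TFEB, TFE3, MITF and the library values of ATP6V0A4, GABARAPL2 and LAMTOR1 were added after their values were seen.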

Additional observations from a re-analysis of the deposited data

Results flagged for a closer look

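In the 72 groups of 4 library values (36 tested members in both groups), 3 held a library whose gap to its nearest neighbour took up nearly the whole range of the group; chance marks about 1 group in 20. ATG101 stood at 30.3 CPM in siBARD1 replicate 5, above 26.1 to 26.8 CPM in the other siBARD1 libraries. ATG16L2 stood at 9.36 CPM in siSCR replicate 4, above 7.54 to 7.81 CPM in the other siSCR libraries. ATG9A stood at 74.7 CPM in siBARD1 replicate 4, below 76.9 to 77.3 CPM in the other siBARD1 libraries, a gap of little size. All 3 genes were called in all 16 alternative fits, those without these libraries included.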

How the results depend on the processing

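Over 17 alternatives, including a threshold of 0.01, the number of ATG genes called higher ran from 6 to 9 (8 as reported) and lower from 4 to 6 (4), and of V-ATPase genes higher from 4 to 6 (5) and lower from 3 to 4 (3). Leaving out 1 library at a time gave 6 to 9 and 4 to 4 for ATG genes and 4 to 5 and 3 to 4 for V-ATPase genes. With the replicate number as a block, 9 ATG genes were higher and 4 lower, and 5 V-ATPase genes were higher and 4 lower. Same-numbered libraries deviated from their group means with correlations of 0.24, 0.22, 0.061 and -0.028. For libraries of unlike number the correlations ran from -0.41 to 0.23. Whether an equal number marks a shared batch was not tested. Of the 20 called members, 17 kept the call in all 16 fits; the others, ATG16L1, ATP6V1E1 and ATG9B, lost it in 1, 6 and 4 fits. Of the 48 called genes of the 7 pathway lists, 31 kept the call in all 16 fits. By fit, the number called higher ran from 5 to 8 for conjugation targets and readers (5 as reported), 4 to 9 for initiation (7), 2 to 7 for receptors (5), 6 to 7 for fusion (6), 0 to 5 for pump assembly (3), 3 to 7 for nutrient sensing (5) and 3 to 5 for lysosomal membrane (5). Uncalled members near 0 changed sign, none with an adjusted p under 0.05 in edgeR. With total-count scaling the log2 fold change was 0.044 for ATG5, 0.0073 for ATG4B, 0.012 for ATG7 and 0.039 for ATP6V0C; without a low-count filter 0.0082 for ATG5 and 0.0048 for ATP6V0C; with a minimum of 1 CPM 0.00040 for ATG5. Leaving out single libraries gave -0.025 to 0.024 for ATG5 and -0.154 to 0.084 for ATP6V0C. The cause was not tested. ATG9B had a log2 change of 0.12 by limma on log2(FPKM + 1), a pseudocount above its FPKM. Total-count scaling also moved the split over all genes to 23.7% higher and 16.2% lower, from 18.9% and 20.0%. Depth limits ATG9B, ATP6V1C2 and ATP6V1G2, with at most 42 counts in any library.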

Other observations

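The count table lists 4 pseudogenes named for ATP6V0C, which together held 4 counts over the 8 libraries, beside 2296 counts for ATP6V0C itself. The 5 pseudogenes named for ATP6V1G1 held 0 counts beside 13351 for the gene, and the pseudogene named for ATG3 held 0 beside 10734. How reads that match both a gene and its copy were treated is not given in the sources used here.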
